A study of Homo sapiens with 4 samples.

Results

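The IFIT and IFITM antiviral genes are a group of interferon-stimulated genes, taken here as 10 named members: IFIT1, IFIT2, IFIT3, IFIT5, IFITM1, IFITM2, IFITM3, IFI27, IFI6 and IFI44. They were found by gene symbol in a table of raw read counts for 12912 genes of the human clear cell renal carcinoma line 786-O. Of the 10 members, 9 were found and tested, and IFI27 was not analysed here. The 786-O line lacks functional VHL, the substrate-recognition part of an E3 ubiquitin ligase that targets the hypoxia-inducible factors (HIF) for degradation. The 786-O-Ctrl cells (VHL-null in the labels) were compared with 786-O-VHL cells, in which a retroviral vector restored HA-tagged VHL, with 2 RNA-seq libraries per group. The labels name the triple-reporter (786-OTR) versions for both groups, so all cells also carry a retroviral reporter that encodes GFP, luciferase and thymidine kinase. Each group is 1 subline of 1 cell line, and nothing says that the libraries of a group came from separate cultures, so the p-values measure the spread between these libraries, which may be technical.

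Interferon receptors signal through the kinases JAK1, JAK2 and TYK2 to STAT transcription factors, which join IRF9 in a complex named ISGF3. This complex binds the interferon-stimulated response element (ISRE) in the promoters of target genes, where several interferon regulatory factors (IRF) can also bind. The IFIT proteins bind foreign RNA and limit its translation, and the IFITM proteins sit in membranes and block the fusion of virus particles with the cell. IFI6 and IFI27 are small membrane proteins of the ISG12 family, and IFI44 is a cytoplasmic protein with antiviral effects.

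The promoters show what the members share in sequence, and were read from a RefSeq table (GRCh38.p14) that gives 250 bases before to 50 after each transcription start. The table matched 8 of the 10 members. The ISRE core was searched on both strands as GAAANNGAA, which reads TTCNNTTTC on the opposite strand. These members have 11 listed starts, and all 11 windows held it, against 8.11% of the 35116 promoters in the table. In 9 of the 11 windows there were 2 or more matches, against 0.701% of all promoters. Windows of the same gene can overlap, so the 11 are not all separate sequences. Where a member has several starts, the window with the most matches is described, and the others are given after it. The stretches below are the parts upstream of the start that hold the matches, written 5′ to 3′ on the strand of the gene, with the ISRE core in capitals. They are shown because this element is where ISGF3 and IRF proteins bind.
IFIT1, chr10:89392500-89392537, plus strand: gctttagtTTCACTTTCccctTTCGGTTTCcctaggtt
IFIT3, chr10:89332422-89332495, plus strand: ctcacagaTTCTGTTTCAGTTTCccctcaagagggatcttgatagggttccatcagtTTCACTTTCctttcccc
IFIT5, chr10:89414516-89414566, plus strand: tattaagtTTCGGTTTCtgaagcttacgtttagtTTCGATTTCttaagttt
IFITM1, chr11:313992-314016, plus strand: aacagcagGAAATAGAAacttaaga
IFITM3, chr11:320879-320920, minus strand: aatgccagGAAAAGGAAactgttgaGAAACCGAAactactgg
IFI27, chr14:94110621-94110657, plus strand: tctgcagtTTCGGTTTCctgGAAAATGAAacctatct
IFI6, chr1:27672269-27672356, minus strand: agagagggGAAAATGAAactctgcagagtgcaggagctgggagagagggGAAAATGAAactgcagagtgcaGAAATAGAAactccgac
IFI44, chr1:78649764-78649788, plus strand: cactgagtTTCAGTTTCctttctct

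IFI6, IFIT3 and IFIT5 held 3 matches each, IFIT1, IFITM1, IFITM3 and IFI27 held 2, and IFI44 held 1. The first 2 matches of IFIT3 overlap each other by their ends, and IFIT5 and IFITM1 each have 1 further match that runs across the start. The windows of the other listed starts of IFIT3, IFI27 and IFI44 held 2, 2 and 1 matches. Those of IFI27 and IFI44 overlap the windows described, and their matches are the same bases counted again. The gamma-activated sequence TTCNNNGAA, an element of interferon gamma signaling, was found once each in IFITM1 and IFI27, where it overlaps ISRE matches, against 7.66% of all promoters. The core of the hypoxia response element (HRE), which HIF binds, was searched as ACGTG only. ACGTG was found in IFI6 alone among the 8, from base -53 to base -49, against 21.4% of all promoters. A match describes letters in the window and not a site in use.

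**Figure D1:**
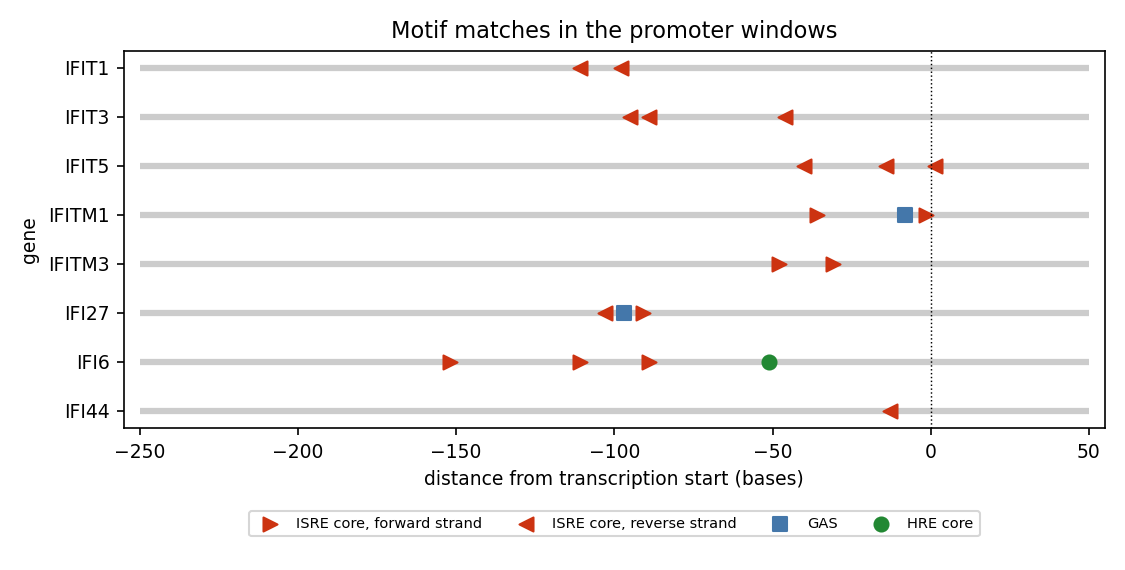
Positions of motif matches (symbols at the middle of each match) in the promoter window of 8 genes, with the distance from the transcription start in bases on the x axis and 1 gene per line. ISRE cores lie between base -156 and base 6 in all 8 genes, and the HRE core, searched as ACGTG only, was found in IFI6 alone.

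The deposited counts summed to between 2807779 in 786-O-VHL replicate 1 and 22141263 in the deeper 786-O-Ctrl library, and the columns of 786-O-Ctrl share 1 replicate number, so they are named here by their depth, as deeper and shallower. Levels are given in CPM (reads of a gene relative to the TMM-scaled total of its library), and 3 counts were worth between 0.142 and 1.02 CPM in a library. VHL mRNA was at 42.9 and 43.9 CPM in 786-O-Ctrl and at 178 and 163 CPM in 786-O-VHL (log2 fold change 1.96, edgeR FDR = 2.86e-19), where counts do not separate the vector from the endogenous gene. Of 12 genes that check the restoration (VHL and HIF pathway genes), 8 fell, led by EGLN3 and CA12 with log2 fold changes of -4.36 and -2.91, 2 rose and 2 did not pass. Those that rose were VHL itself and EPAS1, which encodes HIF2α (log2 fold change 1.37, edgeR FDR = 3.22e-17), and those that did not pass were VEGFA (-0.08, edgeR FDR = 0.243) and CA9 (-1.21, edgeR FDR = 0.0536). All 10 renal carcinoma markers checked were measured, and 1 was higher, 6 were lower and 3 did not pass. Over all genes, 32.6% were higher and 31.9% lower. The summed level of the 10 renal carcinoma markers was 3796 to 3826 CPM in 786-O-Ctrl against 2303 to 2344 CPM in 786-O-VHL. VIM, the marker with the highest level, fell from a mean of 1684 CPM to 730 CPM, and CDH16 rose with a log2 fold change of 1.75. Of 11 leukocyte markers, CD14 was measured, with 1 to 15 counts in a library, and the others, PTPRC and CD3E among them, were not analysed here. Of 6 endothelial markers 3 were measured, with summed levels of 6.18 to 6.65 CPM in 786-O-Ctrl against 1.36 to 2.67 CPM in 786-O-VHL. Most of this sum was TIE1, at 5.89 and 5.71 CPM in 786-O-Ctrl against 1.02 and 1.96 CPM in 786-O-VHL. The others, PECAM1 and KDR, were too low to be tested. Of 8 fibroblast markers 4 were measured, with summed levels of 12.1 to 13.3 and 16.3 to 17.3 CPM. The part of these markers in the results was not tested. In bulk RNA, fewer cells that express a gene and less RNA per cell cannot be told apart.

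All 9 tested members were higher in 786-O-VHL by edgeR's quasi-likelihood test at an FDR under 0.05, and none was lower. Over all 12335 genes tested, 32.6% were called higher and 31.9% lower, or 64.5% in either direction. At an FDR under 0.01 all 9 members still passed, against 27.4% of all genes called higher. In all 9 members both 786-O-VHL libraries lay above both 786-O-Ctrl libraries, which held for 40.8% of all genes, while the reverse held for 39.2%. The median log2 fold change of the members was 0.96, against 0.02 over all genes, and 4 of the 9 had a log2 fold change of 1 or more, against 10.4% of all genes. The changes ran from 1.27-fold for IFI6 to 5.10-fold for IFITM1. Replicates of a member differed by at most 1.18 times in 786-O-Ctrl and by at most 1.21 times in 786-O-VHL. With 2 libraries against 2, an exact two-sided permutation test cannot give a p below 0.333, so the FDR values rest on the spread that edgeR shares between genes.

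**Figure D2:**
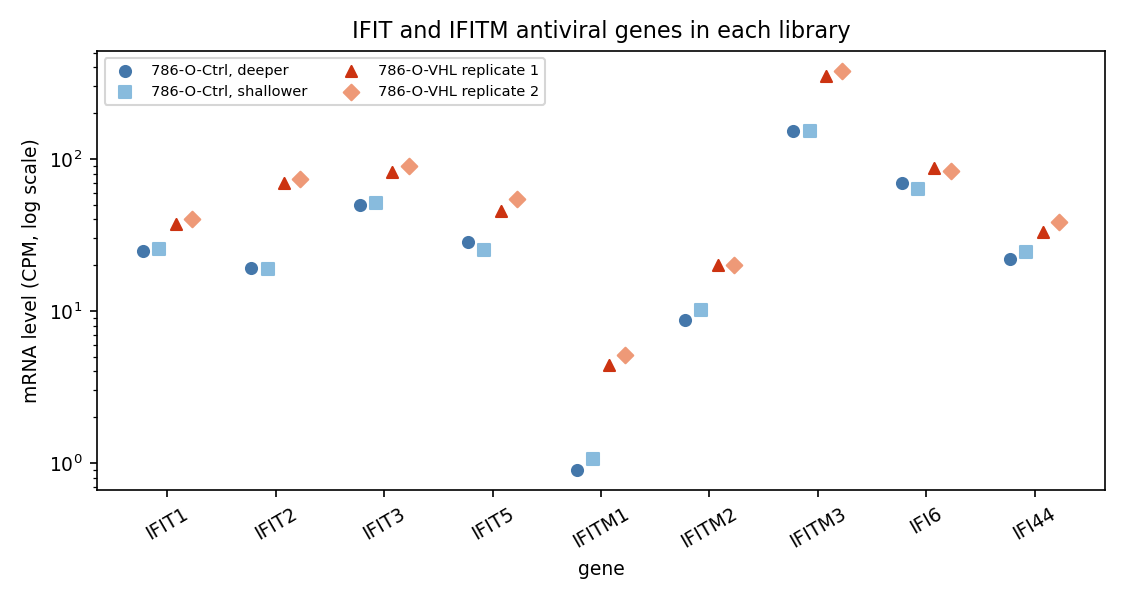
mRNA level of the 9 genes in each of the 4 libraries (CPM, log scale; 1 symbol per library). Both 786-O-VHL libraries lie above both 786-O-Ctrl libraries for every gene, most widely for IFITM1 and IFIT2 and least for IFI6.

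IFIT1, IFIT2, IFIT3 and IFIT5 lie together on the plus strand of chromosome 10. IFIT2 (ENSG00000119922.10, GRCh37 chr10:91043451-91069028) encodes a protein that pairs with the other IFIT proteins and can promote cell death. In 786-O-Ctrl it was at 19.04 CPM in the deeper library and 18.94 CPM in the shallower one, against 69.2 and 74.0 CPM in replicates 1 and 2 of 786-O-VHL. Values of each group are given in this order throughout. The groups were far apart, with the lower 786-O-VHL library 3.63 times the higher 786-O-Ctrl library. The rise was 3.82-fold, from 18.99 ± 0.0718 to 71.6 ± 3.39 CPM (SD, n = 2 each), or 1.93 as a log2 fold change (standard error 0.0913, edgeR FDR = 1.01e-16).

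IFIT1 (ENSG00000185745.10, chr10:91152303-91166244) recognises RNA whose cap lacks ribose methylation. IFIT1 mRNA was at 24.97 and 25.6 CPM in 786-O-Ctrl and at 37.3 and 40.3 CPM in 786-O-VHL. The groups did not overlap, and the gap between them exceeded the difference between replicates. IFIT1 rose 1.56-fold, a log2 fold change of 0.64 with a standard error of 0.101 (edgeR FDR = 2.83e-06), and was the IFIT gene with the smallest rise.

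IFIT3 (ENSG00000119917.14, chr10:91087064-91137230) stabilises IFIT1 and helps it bind RNA. It was at 49.7 and 51.4 CPM in 786-O-Ctrl and at 82.1 and 90.2 CPM in 786-O-VHL, and both 786-O-VHL libraries were higher. The 1.74-fold rise corresponded to a log2 fold change of 0.80 with a standard error of 0.0737 (edgeR FDR = 1.84e-10). IFIT5 (ENSG00000152778.9, chr10:91174325-91181362) binds the end of triphosphate-bearing RNA as a single protein. IFIT5 levels were 28.3 and 25.1 CPM in 786-O-Ctrl against 45.4 and 54.9 CPM in 786-O-VHL. This gene had the widest replicate spread of the members in 786-O-VHL, 1.21 times, and its groups were still apart. IFIT5 rose 1.95-fold, a log2 fold change of 0.96 with a standard error of 0.0998 (edgeR FDR = 1.99e-09).

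The 4 IFIT genes summed to 2569 and 1823 counts in 786-O-Ctrl and to 690 and 4368 counts in 786-O-VHL. As CPM the sum was 122 ± 0.593 in 786-O-Ctrl against 247 ± 17.9 in 786-O-VHL (SD, n = 2 each), a 2.05-fold rise (log2 fold change 1.04, standard error 0.0655, edgeR FDR = 6.58e-14). The make-up of this sum also differed between the groups. IFIT2 took 15.6% of the IFIT counts in each 786-O-Ctrl library, with exact Clopper-Pearson 95% intervals of 14.2% to 17.1% and 13.995% to 17.4%. In 786-O-VHL it took 29.6% (26.2% to 33.1%) and 28.5% (27.2% to 29.9%), so the intervals of the groups were apart. The intervals cover counting error only. IFIT1 went from 20.5% and 21.2% to 15.9% and 15.5%, and IFIT3 from 40.7% and 42.5% to 35.1% and 34.8%. The share of IFIT5 overlapped between the groups, at 23.2% and 20.7% against 19.4% and 21.2%. Within a library, the ratio of IFIT2 to IFIT1 counts was 0.762 and 0.738 in 786-O-Ctrl against 1.85 and 1.84 in 786-O-VHL, so that IFIT2 passed IFIT1. The ratio of IFIT3 to IFIT1 moved less, from 1.99 and 2.01 to 2.20 and 2.24. These shares and ratios are descriptions, with no test across libraries, and do not depend on the scaling of the libraries.

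**Figure D3:**
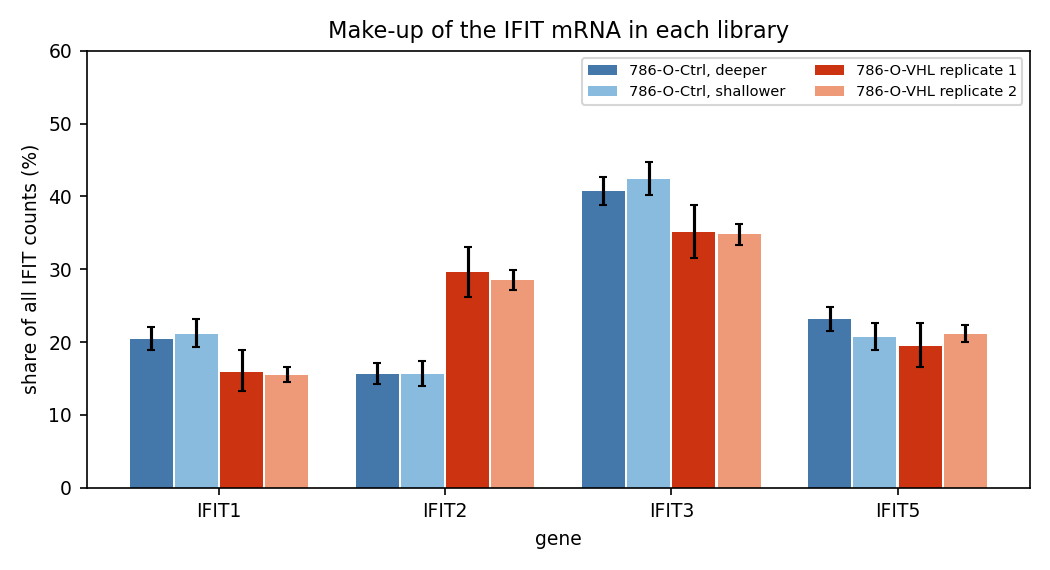
Share of each IFIT gene in all IFIT counts of a library (%), with 4 bars per gene for the 4 libraries and exact Clopper-Pearson 95% intervals as error bars. The share of IFIT2 was 15.6% in each 786-O-Ctrl library against 29.6% and 28.5% in 786-O-VHL, while those of IFIT1 and IFIT3 were lower in 786-O-VHL.

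The IFITM genes are neighbours on chromosome 11. IFITM3 (ENSG00000142089.16, GRCh37 chr11:319676-329475, minus strand), which acts in endosomes against viruses that enter there, was the member with the highest level. It was at 152 and 154 CPM in 786-O-Ctrl and at 350 and 381 CPM in 786-O-VHL. Replicates were close and the groups far apart, with a 2.41-fold rise and a log2 fold change of 1.27 with a standard error of 0.0641 (edgeR FDR = 4.55e-16).

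IFITM2 (ENSG00000185201.16, chr11:303655-309397, plus strand) is a close relative that also acts in endosomes. IFITM2 levels were 8.78 and 10.2 CPM in 786-O-Ctrl against 20.0 and 19.9 CPM in 786-O-VHL. Neither 786-O-Ctrl library reached the 786-O-VHL level, and the rise was 2.12-fold, a log2 fold change of 1.09 with a standard error of 0.148 (edgeR FDR = 2.9e-07). IFITM1 (ENSG00000185885.16, chr11:310041-315272, plus strand) acts mainly at the cell surface and was the lowest of the members. It had 19 and 16 counts in 786-O-Ctrl against 13 and 87 counts in 786-O-VHL, which correspond to 0.902, 1.06, 4.41 and 5.17 CPM. The 4.41 CPM of 786-O-VHL replicate 1 rest on 13 counts, since that library is shallow and 3 counts were worth 1.02 CPM in it. IFITM1 rose 5.10-fold, a log2 fold change of 2.35 with a standard error of 0.334 (edgeR FDR = 5.9e-07), the largest change of the members with the widest error.

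The IFITM transcripts resemble each other, so a counting program could split or drop reads between them. Of all stretches of 50 bases in the IFITM1 transcript, 55.1% occurred also in another annotated gene, mostly in ENSG00000288681, a gene model that overlaps it on the same strand. The figure was 20.8% for IFITM3 and 12.0% for IFITM2. The sum of the 3 genes is not affected by a split among them, and rose from 163 ± 2.45 to 390 ± 21.9 CPM (SD, n = 2 each), 2.41-fold, with a log2 fold change of 1.27 with a standard error of 0.0638 (edgeR FDR = 4.57e-16). IFITM3 took 93.2% to 94.0% of the summed counts in every library. IFITM1 took 0.558% and 0.644% of them in 786-O-Ctrl against 1.18% and 1.27% in 786-O-VHL. The 95% interval of replicate 1 (0.628% to 2.003%) overlapped those of both 786-O-Ctrl libraries (0.337% to 0.871% and 0.369% to 1.04%), and that of replicate 2 (1.02% to 1.57%) overlapped that of the shallower one.

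IFI6 (ENSG00000126709.15, GRCh37 chr1:27992575-27998723, minus strand) is a membrane protein of the endoplasmic reticulum and mitochondria that restrains cell death and virus replication. IFI6 levels were 69.3 and 63.0 CPM in 786-O-Ctrl against 87.2 and 83.0 CPM in 786-O-VHL. IFI6 was the member that changed least, and its lower 786-O-VHL library was 1.198 times its higher 786-O-Ctrl library. The log2 fold change was 0.34 (standard error 0.0736, edgeR FDR = 0.00019), or 1.27-fold. LINC02574 overlaps 23.1% of the annotated exon bases of IFI6 on the same strand, so reads there could have been counted on either gene.

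IFI44 (ENSG00000137965.11, GRCh37 chr1:79115481-79129763, plus strand) was at 22.03 and 24.3 CPM in 786-O-Ctrl and at 33.2 and 38.6 CPM in 786-O-VHL. The groups did not overlap, and IFI44 rose 1.61-fold, a log2 fold change of 0.69 with a standard error of 0.108 (edgeR FDR = 2.69e-06). With every library thinned to the depth of the shallowest, its log2 fold change was 0.36 and no longer passed (edgeR FDR = 0.0932). Its neighbour and paralog IFI44L rose more, from 9.78 and 10.6 to 39.3 and 34.3 CPM (log2 fold change 1.81, standard error 0.126, edgeR FDR = 5.43e-13). Counts of IFI44L were 0.444 and 0.434 times those of IFI44 in 786-O-Ctrl, against 1.18 and 0.888 times in 786-O-VHL. The other paralog tested, IFITM10, was low and had a log2 fold change of -0.26 that did not pass (edgeR FDR = 0.501).

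**Figure D4:**
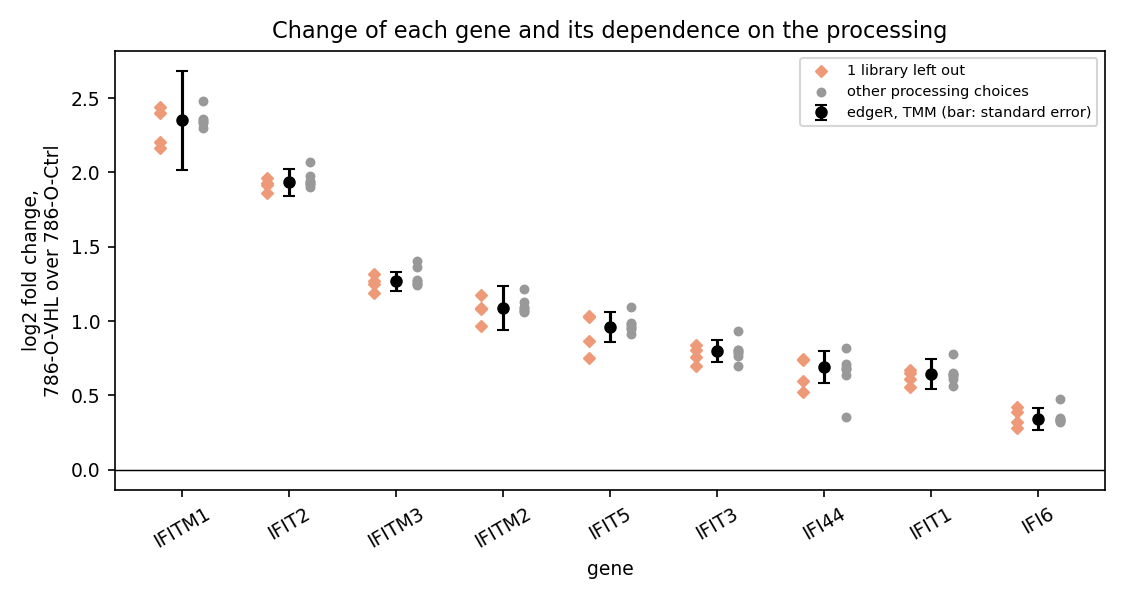
Log2 fold change (786-O-VHL over 786-O-Ctrl) of each of the 9 genes, with the edgeR standard error as a bar, beside the values with 1 library left out and under other processing choices. All values are above 0, and the lowest of IFI44, 0.36, is that after thinning the libraries.

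Levels of different genes were compared per kilobase of the canonical transcript. In 786-O-Ctrl, IFITM3 led with 250.1 CPM per kilobase, followed by IFI6 with 81.4, IFIT3 with 21.1, IFI44 with 13.8, IFITM2 with 9.42, IFIT5 with 6.63, IFIT1 with 5.88, IFIT2 with 5.60 and IFITM1 with 1.47. No neighbours in this order overlapped in their libraries. By mean level the first 4 places were the same in 786-O-VHL, with IFITM3 at 598 and IFI6 at 105 CPM per kilobase. IFIT2 moved from the eighth to the fifth place, at 21.1 CPM per kilobase, and its libraries overlapped those of IFI44, at 21.4. The IFITM2 libraries, at 19.89 and 19.83, also lay between those of IFI44, at 19.76 and 22.94. IFITM1 stayed last, at 7.17 CPM per kilobase.

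Of 12 genes that start within 100 kb of a member, 3 were higher, 3 were lower and 6 did not pass, shares no larger than the 32.6% higher and 31.9% lower of all genes. IFI44L, the paralog described above, was 1 of the 3 that were higher. In the IFIT cluster, LIPA, which encodes lysosomal acid lipase, fell with a log2 fold change of -1.03 with a standard error of 0.0732 (edgeR FDR = 9.22e-13). LIPA lies on the opposite strand, and its exons cover 1.5% of those of IFIT2 and 1.86% of those of IFIT3. On the same strand, the noncoding RNA gene ENSG00000232110 overlaps 12.1% of the annotated exon bases of IFIT2, so reads there could have been counted on either. Beside the IFITM genes, PSMD13, a proteasome subunit, and RIC8A, a chaperone of G proteins, fell with log2 fold changes of -1.17 and -0.79. PKP3, a desmosome plaque protein, rose there with a log2 fold change of 0.88, and PGGHG had one of 0.31 that passed at FDR = 0.00772 in edgeR. PGGHG did not pass in DESeq2 (DESeq2 FDR = 0.15) or after thinning (edgeR FDR = 0.344). Its log2 fold change was 0.23 without 786-O-VHL replicate 2.

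The pathway upstream of the members was described with gene lists, counted by the same test. Of 16 interferon ligands and receptors, 6 receptor chains were tested, and the 10 ligand genes were not analysed here. IFNGR1, a chain of the interferon gamma receptor, rose with a log2 fold change of 0.72 with a standard error of 0.0835 (edgeR FDR = 1.63e-08). The other chain, IFNGR2, had a log2 fold change of 0.37 (edgeR FDR = 0.0437). It did not pass in DESeq2 (DESeq2 FDR = 0.152) or with RLE factors (edgeR FDR = 0.0519). The log2 fold change was 0.25 without the shallower 786-O-Ctrl library and 0.25 without 786-O-VHL replicate 1. The remaining 4 did not pass, among them IFNAR1, which had a log2 fold change of -0.13, and IFNAR2, which was at 2.37 to 4.75 CPM in the libraries.

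Among the JAK-STAT genes, STAT2, a subunit of ISGF3, rose from 46.1 and 51.4 CPM in 786-O-Ctrl to 86.1 and 85.1 CPM in 786-O-VHL, and IRF9 was not analysed here. The groups of STAT2 were apart, with a log2 fold change of 0.82 and a standard error of 0.0762 (edgeR FDR = 2.49e-10). JAK2 rose with a log2 fold change of 1.08. TYK2 had a log2 fold change of -0.25, which did not pass with scaling by library totals alone (edgeR FDR = 0.128) or after thinning (edgeR FDR = 0.219). JAK1 had one of 0.16, which did not pass in DESeq2 (DESeq2 FDR = 0.0972) or after thinning (edgeR FDR = 0.177).

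Of 9 tested interferon regulatory factors and their binding partners, 7 rose, 1 fell and 1 did not pass, with a median log2 fold change of 0.69. Over all genes, 32.6% were higher and 31.9% lower. IRF1, an activator that binds ISRE-like elements, rose most among them in level, from 63.7 and 74.7 CPM to 261 and 277 CPM. Its log2 fold change was 1.98 (standard error 0.0725, edgeR FDR = 4e-19), and all libraries of the groups were apart by a wide margin. IRF2BPL rose by 1.61 on the log2 scale. IRF7, an activator of interferon genes, had a log2 fold change of 1.74 from 0.997 and 1.33 CPM to 2.03 and 4.33 CPM, which rests on 786-O-VHL replicate 2 (0.82 without it, edgeR FDR = 0.404). IRF3, which responds to viral RNA and DNA sensors, fell by 0.31 on the log2 scale (edgeR FDR = 0.00079).

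Of 10 feedback genes of interferon signaling, 3 were higher, 2 were lower and 5 did not pass, where 32.6% of all genes were higher and 31.9% lower. SOCS1 and SOCS3, inhibitors of the JAK kinases, rose with log2 fold changes of 1.84 and 1.27. PIAS2 and PIAS3, which inhibit STAT proteins, fell with log2 fold changes of -0.66 and -0.60. USP18, which removes ISG15 from proteins and blocks the interferon alpha receptor, had a log2 fold change of 0.41 (edgeR FDR = 0.0366). It did not pass in DESeq2 (DESeq2 FDR = 0.266) or after thinning (edgeR FDR = 0.142). The log2 fold change was 0.33 without 786-O-VHL replicate 2.

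Of 63 tested interferon-stimulated genes other than the members, 48 were higher, 5 lower and 10 not past the threshold. The share higher was 76.2%, against 32.6% of all genes, of which 31.9% were lower. The median log2 fold change of the list was 0.79. The list shares STAT2, IRF7, USP18 and IFI44L with the genes above. RSAD2, the antiviral enzyme viperin, rose from 6.65 and 6.58 CPM to 41.7 and 61.3 CPM, or 3.07 as a log2 fold change (standard error 0.140, edgeR FDR = 4.98e-17). ISG20, an RNA exonuclease, rose with a log2 fold change of 3.04, and its 786-O-VHL libraries were at 12.9 and 23.1 CPM. Without 786-O-VHL replicate 2 its log2 fold change was 2.37 (edgeR FDR = 4.52e-06). LAMP3 had a log2 fold change of 2.86 from 2 and 4 counts in 786-O-Ctrl to 4 and 21 in 786-O-VHL, too few for a firm size. It was 2.21 without the deeper 786-O-Ctrl library and 3.61 without the shallower one (edgeR FDR = 0.0316 and 0.00116). OAS3, an enzyme that makes the messenger of RNase L in response to double-stranded RNA, fell from 164 and 154 CPM to 70.9 and 89.4 CPM (log2 fold change -0.92, edgeR FDR = 2.5e-11). SLFN11 and TDRD7 also fell, with log2 fold changes of -0.64 and -0.46.

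**Figure D5:**
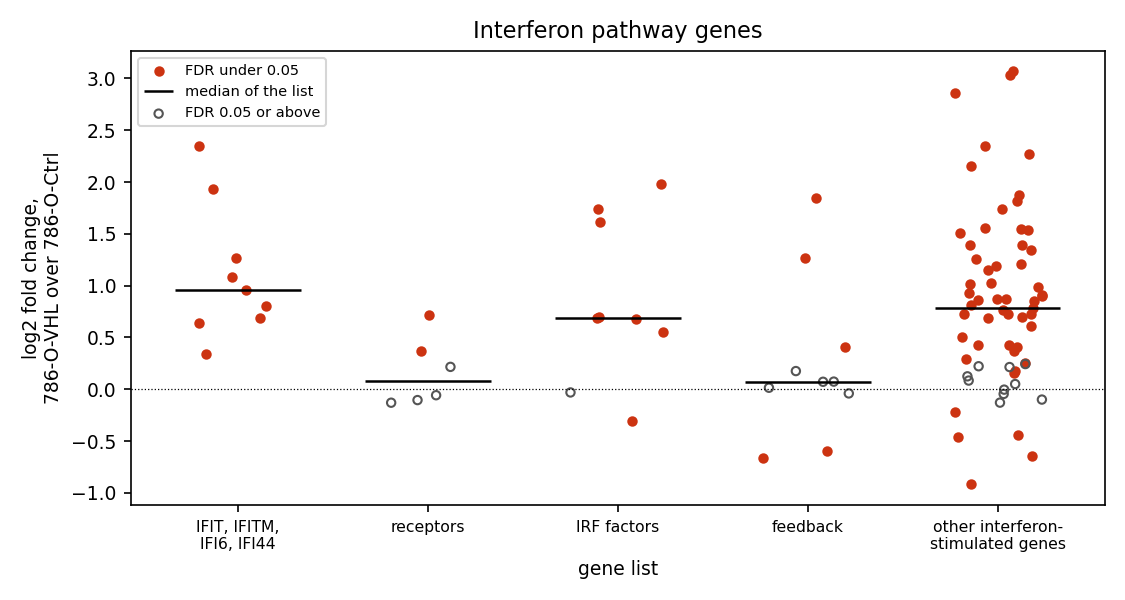
Log2 fold change (786-O-VHL over 786-O-Ctrl) of each tested gene, by list, with filled points past FDR 0.05, open points not past it and a line at the median of a list. The medians were 0.96 for the 9 members, 0.08 for the receptors and 0.69 for IRF genes together with their binding partners. They were 0.07 for feedback genes and 0.79 for other interferon-stimulated genes.

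Of 13 tested genes whose proteins are known to act with the members, 4 were higher, 8 were lower and 1 did not pass. Over all genes, 32.6% were higher and 31.9% lower. The median log2 fold change of the 13 was -0.20. VAPA, a membrane protein that binds IFITM3, rose with a log2 fold change of 0.82 (edgeR FDR = 3.64e-12). CMTR2, a methyltransferase of the RNA cap that IFIT1 reads, rose from 2.94 and 1.66 CPM to 8.14 and 5.76 CPM. NR4A1 had a log2 fold change of 0.64 (edgeR FDR = 0.00218) that did not pass in DESeq2 (DESeq2 FDR = 0.062). It was 0.51 without the deeper 786-O-Ctrl library and 0.61 without 786-O-VHL replicate 2. SKP2, a ubiquitin ligase subunit, fell from 77.8 and 76.9 CPM to 21.7 and 23.6 CPM (log2 fold change -1.74, edgeR FDR = 5.54e-16). EIF3E, a translation initiation factor subunit, and ZDHHC20, an enzyme that attaches palmitate to IFITM3, fell with log2 fold changes of -0.73 and -0.68.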

How the data were processed

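The authors aligned reads of total RNA libraries (Illumina TruSeq) to hg19 and deposited a single gene-level table of raw counts. The submitters' processing notes name CASAVA and STAR, and how reads were assigned to genes, with or without strand and on which annotation, is not given in the sources used here. Counts were tested with edgeR 4.0.16 (R 4.3.3, TMM, quasi-likelihood F test, filterByExpr with a minimum count of 10, Benjamini-Hochberg FDR under 0.05 over 12335 genes, 577 removed). Standard errors are those implied by the F statistic. Library totals were 22141263 and 15714166 for 786-O-Ctrl, against 2807779 and 16114120 for 786-O-VHL. The table has 75 duplicated symbols, and a repeated symbol was taken as the identifier with the most counts. Coordinates are from GENCODE v44lift37. The genes named are the members, VHL, STAT2, IRF1, the paralogs, at most 3 genes per direction of each list and at most 2 neighbours per direction and cluster past the FDR, and 1 gene that this rule names is not reported here. The members and lists were chosen with earlier results of these data known. The analysis was tested on simulated data. Alternatives were DESeq2 1.42.0, limma-voom (limma 3.58.1), RLE factors, library totals, other filters, thinning, a stricter FDR and each library left out. Replicates differed by more than sampling noise (chi-square per degree of freedom 2.25 and 2.76).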

Additional observations from a re-analysis of the deposited data

How the results depend on the processing

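All 9 tested members were higher in 786-O-VHL and past the FDR of 0.05 in the main analysis, DESeq2, limma-voom, RLE factors, library totals and both filters. In these settings the share of all genes called higher ran from 21.8% (DESeq2) to 41.2% (library totals). In the main analysis all 9 were also called higher at an FDR under 0.01, as 27.4% of all genes were. IFI6 did not reach that threshold in DESeq2 (DESeq2 FDR = 0.013). With each library left out, the log2 fold changes of all 9 stayed above 0. After thinning to the shallowest library 7 of 8 tested members passed, where 26.1% of all genes were higher. IFITM1 was not tested there, and IFI44 did not pass (log2 fold change 0.36, edgeR FDR = 0.0932). With 1 library left out, the log2 fold change of IFITM1 lay between 2.17 and 2.44, that of IFIT2 between 1.86 and 1.96, that of IFI6 between 0.28 and 0.42, that of the IFIT sum between 0.94 and 1.09 and that of the IFITM sum between 1.19 and 1.31. Where leaving out a library leaves 1 in a group, that library is assumed to vary like the other group. Scaling by library totals alone moved the median log2 fold change of all genes from 0.02 to 0.15 and the calls to 41.2% higher and 25.1% lower. The pathway lists, with the paralogs and the proteins that act with the members but without the HIF list, held 103 tested genes. Of these, 64 were higher and 17 lower, against 32.6% and 31.9% of all genes. The alternatives gave between 55 higher (DESeq2, where 21.8% of all genes were higher) and 71 higher (library totals, where 41.2% were). No paired analysis was possible because both 786-O-Ctrl columns carry the same replicate number. Depth limits genes such as IFITM1, LAMP3 and IRF7, which had few counts in 786-O-VHL replicate 1, and LAMP3 could not be tested without 786-O-VHL replicate 2, after thinning or with at least 10 counts in every library.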
